A study of Mus musculus with 9 samples.

Results

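The uterine transcriptome was described here in the 3 control libraries of a mouse RNA sequencing study, chosen by their titles and treatment label from 9 libraries in 3 groups. The controls were immature C57BL/6 females given a single dose of 1 mg progesterone with 10 mg/kg of β-estradiol daily over 3 days. Their uterine horns were injected with 50 µl of embryo culture medium that had held no embryo. The other groups had the same strain, priming and volume, but medium pooled from 9 competent or from 18 arresting human embryos, and their libraries were not used. The treatment text gives the age as 25 days and the design text also names 21 days, which was not resolved. Whole uteri were flash frozen and libraries were made with a TruSeq kit from 1 µg of total RNA for a HiSeq 2000 instrument. The sources used here do not say how long after injection the tissue was taken, nor whether each library came from a separate animal. The spread between libraries may therefore be technical.

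The uterus holds a luminal epithelium that dips into glands, a fibroblast stroma under it, an outer wall of smooth muscle and a thin covering of mesothelium. Estradiol acts through the receptor encoded by Esr1, drives epithelial growth and induces secreted proteins such as lactoferrin and complement C3. Progesterone acts through the receptor encoded by Pgr, restrains that growth and prepares the stroma for decidualisation, so a uterus given both hormones is a model of the tissue that meets an embryo. In a whole organ, fewer cells of a type and less RNA per cell cannot be told apart.

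Levels are given as the authors deposited them, in FPKM (fragments per kilobase of transcript, scaled to the fragments mapped in the library), and were summed for each gene over its annotated transcripts. FPKM is scaled to length, so levels of different genes may be set side by side. Of 35933 annotated genes, 12837, 12571 and 12643 reached 1 FPKM in libraries 1, 2 and 3, and 11152 (31.0%) did so in all 3. Of the 22245 protein-coding genes, 10139 (45.6%) did so, and that share is the background for each gene list below. With transcripts assembled from the reads added, 11553 (51.9%) did so, which is the background for counts made with assembled transcripts. An exact 0 in these files can be a failed estimate. There were 691 genes listed at 0 in some libraries while the others averaged over 5 FPKM, and 224 genes were listed at 0 in all 3 but reached 1 FPKM once transcripts assembled from the reads were added. Read depth is unknown. The product of coverage and length, summed over annotated transcripts, came to 1077, 1468 and 1341 Mb, so library 1 was the shallowest.

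The transcriptome was top heavy. The 10 most abundant genes held 19.3, 17.1 and 16.8% of summed FPKM in libraries 1, 2 and 3, and the 100 most abundant held 45.8, 43.4 and 42.9%. Of the 30 genes of highest mean, 27 were among the first 30 of every library. They comprised 11 ribosomal protein genes, 4 mitochondrially encoded subunits of the respiratory chain and 11 predicted genes known by a Gm number. The remaining 4 were the annotated microRNA gene mmu-mir-689-2, the translation elongation factor Eef1a1, the growth-associated Tpt1 and the actin-binding Tmsb4x.

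The first place was held by a 57-base feature, mmu-mir-689-2, at chr16:11144218-11144274 (plus strand, NCBIM37). It had 66011, 40557 and 43678 FPKM in libraries 1, 2 and 3, and library 1 stood above the other 2. Its sequence is shown because the leading gene by FPKM is so short, and it is printed without capitals because no part of it is singled out.
mmu-mir-689-2: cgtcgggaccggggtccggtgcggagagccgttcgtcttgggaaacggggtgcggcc
The sequence had 3 exact copies on 3 chromosomes of that build. Division by so short a length weighs on the value. By aligned bases (coverage times length) the same gene held 0.382, 0.237 and 0.255% of the total and was in place 18. Genes typed as microRNA made up 6.64, 4.32 and 4.57% of FPKM but 0.388, 0.238 and 0.258% of aligned bases. Their FPKM summed to 66491, 40630 and 43958, nearly all of it from mmu-mir-689-2. The type is the annotation's, and what RNA the reads of this feature came from was not tested.

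Many of the predicted genes in the first places were near copies of genes for abundant proteins. Of the 11 among the first 30, 9 had a transcript matching that of a named gene over most of their length. Gm14303 was identical over 171 bases to Rps29, and Gm12481 over 297 bases to Serf2. Gm10443 matched Rps28 at 100% identity over 305 bases and Gm10222 matched mt-Nd4l at 100% over 297 bases. Gm12013 matched Rpl39 at 98.7%, Gm9385 matched Rpl24 at 99.8%, Gm14456 matched Tpt1 at 99.4% and Gm10925 matched mt-Atp6 at 93.8%. Reads of such pairs cannot be assigned with certainty, so both members of a pair are uncertain. Gm14303 was listed at 14632, 12264 and 10997 FPKM, and Rps29 itself at 3716, 3312 and 1795 FPKM. The gene mt-Nd4l, a subunit of respiratory complex I, was listed at 0 in all 3 libraries while Gm10222 had 4916, 4409 and 4270 FPKM. For Gm10736 and Gm10076, no such match was found.

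Ribosomal protein genes made up the largest named family. Of 82, 78 reached 1 FPKM in all 3 libraries, and they held 18.2, 17.6 and 18.2% of FPKM, a share that differed little between libraries. By aligned bases they held 10.5, 9.66 and 10.0%. The highest were Rpl13a, Rps15a, Rplp1, Rpl30, Rps14, Rps24, Rps21, Rpl32, Rps15, Rps9 and Rps19. Among the 13 mitochondrially encoded protein genes, mt-Co1, mt-Co2, mt-Co3 and mt-Cytb together had 5.44, 5.91 and 4.63% of FPKM. The other 9 were listed at 0 in every library. Predicted nuclear copies hold values for at least mt-Nd4l and mt-Atp6, as given above.

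Ordering by aligned bases, which does not favour short transcripts, put mt-Co1 first with 2.12, 2.09 and 1.82% of the total, and 18 of the first 30 genes were shared with the order by FPKM. Complement C3 took place 5 with 0.820, 0.838 and 1.05% of aligned bases, against place 81 by FPKM. Lactoferrin, an iron-binding antimicrobial protein encoded by Ltf, took place 7 with 0.704, 0.635 and 0.494%, against place 58 by FPKM. The chloride channel regulator Clca3 was in place 17 and Lcn2, a carrier of iron-loaded siderophores, in place 30. Other secreted products did not come forward: Prap1 was in place 42 by aligned bases and 41 by FPKM, and Wfdc2 in place 75 by aligned bases and 49 by FPKM.

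With ribosomal protein, mitochondrial and predicted genes and pseudogenes set aside, the order among protein-coding genes opened with Eef1a1, Tpt1 and Tmsb4x. Eef1a1 had 8396, 8091 and 10876 FPKM in libraries 1, 2 and 3, Tpt1 had 7654, 7235 and 7283, and Tmsb4x had 5075, 5127 and 3895. The ranges of these 3 genes did not overlap one another, so their order held in every library. Below them Eef1b2 had 3111, 2979 and 2682 FPKM, under every library of Tmsb4x.

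Prap1, a small secreted protein of uterine and gut epithelium, had 1962, 1691 and 4895 FPKM, and library 3 was more than 2-fold above both others. Because of that spread its place could not be told from those of the genes just below it. Lcn2 had 2614, 2002 and 2419 FPKM (mean 2345 ± 313, SD, n = 3) and Ltf had 2528, 2262 and 1761 FPKM (2184 ± 389). C3 had 1572, 1594 and 2002 FPKM (1723 ± 242). The ranges of Lcn2 and Ltf overlapped, and those of Ltf and C3 did as well, so the order of these 3 secreted proteins is not firm between neighbours. Clca3, with 1052, 1036 and 1084 FPKM, varied less than the genes just named (1057 ± 24.5).

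Other genes in this part of the order serve the whole cell. They were the ribosome scaffold Gnb2l1, the chaperones Hspa8, Hsp90ab1 and Ppia, the cytochrome oxidase subunits Cox7b and Cox6c, the ATP synthase subunit Atp5b, the ubiquitin gene Ubb and the ubiquitin-like Ubl5, the myosin light chain Myl6, the glutathione transferase Gsto1, the chromatin-associated Ptma and the proteasome activator Psme2. Their means lay between 1067 FPKM (Cox6c) and 2740 FPKM (Gnb2l1). Several of these places rested on short transcripts or on forms not typed as protein coding. From transcripts of 300 nt or more, the mean of Ubl5 was 44.6 FPKM in place of 1768, that of Cox7b 174 in place of 2182, and that of Psme2 172 in place of 1699. From protein-coding transcripts alone, Tpt1, Eef1b2 and Ppia were at 0 and Gnb2l1 averaged 465 FPKM. One gene in this stretch, Alox5ap, which helps 5-lipoxygenase make leukotrienes, owed its place to 1 library: it had 4673 FPKM in library 2, against 43.1 and 55.8 in libraries 1 and 3. The value in library 2 sat on Alox5ap-001, a transcript of 125 nt.

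**Figure D1:**
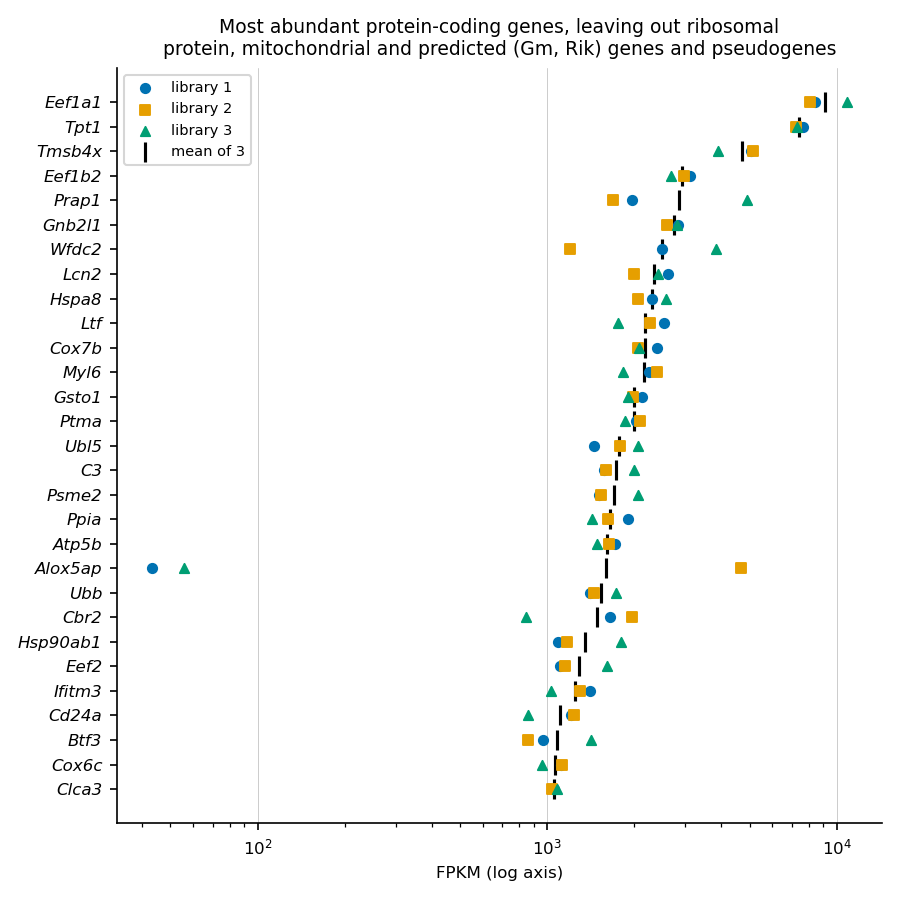
FPKM (log axis) of the protein-coding genes of highest mean, with 1 of the first 30 not drawn, once ribosomal protein, mitochondrial, predicted and pseudogene symbols are left out; each point is 1 control library and the bar is the mean of 3. The 3 libraries lie close together for Clca3 and Gnb2l1, library 3 stands alone for Prap1 and library 2 alone for Alox5ap.

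Markers of the main compartments of the uterus were present in every library. All 16 epithelial markers reached 1 FPKM in all 3, with medians of 223, 237 and 213 FPKM. Wfdc2, a secreted protease inhibitor homologue of genital tract epithelium, led with 2486, 1198 and 3821 FPKM. With assembled transcripts added it had 3701, 2367 and 3821, so library 2 stayed the lowest. The keratins of simple epithelium followed: Krt19 had 778, 835 and 575 FPKM, Krt8 had 636, 650 and 503, and Krt18 had 358, 349 and 428. Krt7 had 241, 269 and 249 FPKM. Among surface and junction proteins, Cldn7 had 523, 419 and 264 FPKM, the mucin Muc1 had 205, 205 and 247, and E-cadherin, encoded by Cdh1, had 137, 151 and 133. Keratins of stratified epithelium were near the floor: Krt5 had 0.410, 0.269 and 0.332 FPKM and Krt14 had 0.185, 0.673 and 0.442. None of the 9 stratified markers reached 1 FPKM in all 3 libraries, and Krt4 was listed at 0. Of 50 keratin genes, 6 reached 1 FPKM in all 3.

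Glandular genes gave a mixed picture. Sox17, a transcription factor of uterine epithelium and of endothelium, had 71.9, 74.8 and 63.6 FPKM, but of the 8 listed gland markers 2 reached 1 FPKM in all 3 libraries. Foxa2, the transcription factor that defines uterine glands, had 0.703, 0.574 and 2.39 FPKM. The gland protease Prss29 had 1.71, 1.31 and 15.3 FPKM, highest in library 3. Spink3, a trypsin inhibitor, had 1.76, 0.320 and 1.40 FPKM, and Ttr was listed at 0. Lif, the gland cytokine needed for implantation in the mouse, had 1.01, 2.32 and 0.720 FPKM.

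Of 14 stromal markers, 12 reached 1 FPKM in all 3 libraries, with medians of 45.5, 37.1 and 61.4 FPKM. The matrix proteoglycan Dcn led at 943, 838 and 928 FPKM (903 ± 56.7). Vim, an intermediate filament of mesenchyme, had 375, 338 and 571, and Lum, another collagen-binding proteoglycan, had 238, 202 and 375. Library 3 was the highest for Vim and Lum and not for Dcn. The homeobox genes that pattern the uterus were present too: Hoxa10 had 40.4, 32.8 and 79.5 FPKM and Hoxa11 had 33.5, 39.2 and 39.4. Estimates at 0 occurred here as well. The collagen gene Col3a1 was listed at 131, 199 and 0 FPKM, and Vcan, a large proteoglycan, was listed at 0 in all 3 libraries but at 5.84, 5.52 and 1.76 FPKM with assembled transcripts.

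Smooth muscle was the second list by summed FPKM, with 3150, 3323 and 3313 in libraries 1, 2 and 3. Of its 14 markers, 12 reached 1 FPKM in all 3 libraries. The myosin light chain Myl9 had 1075, 1062 and 1018 FPKM, smooth muscle actin (Acta2) had 628, 620 and 539, and Tagln, an actin cross-linker, had 604, 651 and 755. Enteric-type actin (Actg2) had 137, 144 and 156 FPKM and the contractile myosin heavy chain Myh11 had 70.3, 94.1 and 72.9. The libraries were close to one another for each of these. Mylk, the gene of the kinase that starts contraction, was listed at 0, 14.9 and 26.8 FPKM, and at 119, 134 and 201 with assembled transcripts. Much of the second set came from partial forms. An assembled form of 3 exons held 92.0, 97.5 and 61.9 FPKM, and in library 3 one of 2 exons held 93.5. The annotated transcripts listed above 0 have 14 and 32 exons. Cardiac actin (Actc1) stayed under 1 FPKM. The fast skeletal light chain Mylpf had 16.9, 11.7 and 13.1 FPKM, while the skeletal heavy chains Myh1 and Myh4 were listed at 0.

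Vessels and covering layers were measured at lower levels. All 12 endothelial markers reached 1 FPKM in every library, summing to 106, 107 and 124 FPKM, led by Egfl7 (14.5, 17.02 and 28.8 FPKM), which endothelium secretes, and the mucin-like Emcn (14.4, 14.3 and 15.7 FPKM). Ccl21a, a chemokine of lymphatic vessels, had 93.8, 87.6 and 60.5 FPKM, and the lymphatic hyaluronan receptor Lyve1 had 9.32, 8.87 and 6.51. Pericyte genes included Rgs5, a regulator of G protein signalling, at 16.5, 13.6 and 20.4 FPKM. The 5 mesothelial markers summed to 37.9, 73.0 and 34.9 FPKM, highest in library 2, where Upk3b had 34.6 FPKM against 11.3 and 15.9 in libraries 1 and 3.

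Leukocyte genes were led by macrophage markers. Of 12, 11 reached 1 FPKM in all 3 libraries, and their sums were 433, 312 and 623 FPKM, lowest in library 2 and highest in library 3. Lysozyme (Lyz2) had 154, 107 and 211 FPKM, and the complement subunits C1qa and C1qb had 61.9, 43.8 and 79.2 FPKM and 57.7, 39.3 and 88.5 FPKM. Csf1r, the receptor for the growth factor that sustains macrophages, had 12.2, 7.72 and 16.1 FPKM. Of 13 lymphocyte markers 5 reached 1 FPKM in all 3, with the cytotoxic granule genes Gzmb (9.03, 4.09 and 8.59 FPKM) and Gzma (6.33, 1.70 and 14.9 FPKM) the highest. Neutrophil markers reached 1 FPKM in all 3 libraries for 2 of 10 genes, S100a8 and S100a9, each highest in library 2. No eosinophil marker of 5 did so, and Epx, the eosinophil peroxidase, was listed at 0 in libraries 1 and 2. Hemoglobins, made by red cell precursors, summed to 934, 987 and 1497 FPKM, highest in library 3.

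Genes of neighbouring tissues were also read. Pax8, a transcription factor of the Müllerian tract, had 34.7, 35.2 and 40.7 FPKM, while the oviduct secretion gene Ovgp1 was listed at 0. Of 9 ovary markers, the granulosa cell factor Foxl2 reached 1 FPKM in all 3 libraries with 9.83, 13.5 and 7.77 FPKM, and the steroidogenic genes Cyp11a1 and Cyp19a1 did not reach it in any. Of genes used by cycling cells, all 10 proliferation markers reached 1 FPKM in all 3, with sums of 208, 209 and 147 FPKM, lowest in library 3. The replication clamp Pcna had 127, 116 and 86.6 FPKM and the mitotic kinase Cdk1 had 21.2, 29.1 and 20.3.

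**Figure D2:**
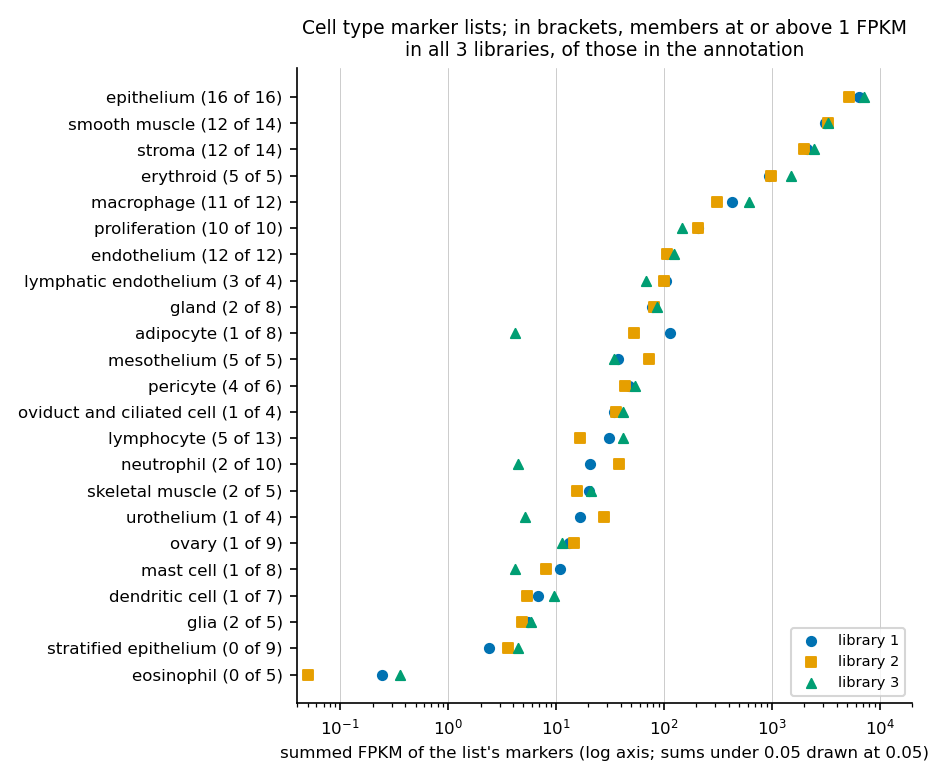
Summed FPKM (log axis) of the markers of each cell type list in the 3 control libraries, 1 point per library; lists hold different numbers of genes, so a sum does not measure a share of cells. Epithelium, smooth muscle and stroma have the highest sums, and library 3 stands below the other 2 for adipocyte and neutrophil markers.

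The levels of the 2 main steroid receptors depended on which transcripts were counted. Esr1 was listed at 0 in all 3 libraries and Pgr at 0, 0 and 19.1 FPKM. When transcripts assembled from the reads of the same genes were added, Esr1 had 99.3, 98.7 and 82.5 FPKM and Pgr had 26.5, 43.8 and 31.8. By these sums Esr1 was above Pgr in every library with no overlap. Each library held 2 assembled Esr1 transcripts. One had 9 exons and 33.3, 45.2 and 40.01 FPKM. Its 3′ end lay 3590, 3590 and 3592 nt beyond that of an annotated transcript with the same introns. The other had 5 exons and 66.0, 53.5 and 42.4 FPKM, but its structure was not the same throughout: in library 1 it held an intron that is not annotated, and in libraries 2 and 3 its introns were all annotated. Both ended at the same base within each library. The range of the 9-exon form alone overlapped that of the Pgr sums, so the gap between the 2 genes rests on adding the 5-exon form. The assembled Pgr transcripts were partial too. They had 4 exons in each library and, in library 2, also 8, against 10 in the annotated Pgr-202.

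The ends of the assembled Esr1 and Lifr transcripts carried a polyadenylation hexamer. The last 30 bases are shown for the 9-exon Esr1 transcript of libraries 1 and 2 (chr10:5340927-5340956, minus strand, NCBIM37). Those of the 20-exon Lifr transcript of all 3 libraries (chr15:7147460-7147489, plus strand) are shown as well. Both lie beyond the end of an annotated transcript with the same introns. Capitals mark the copy of AATAAA, the commonest poly(A) signal, that lies nearest the end; the Esr1 sequence holds further copies upstream, in lower case.
Esr1: aatgttcaaataaaaaataaAATAAAggca
Lifr: AATAAAtatattttcttacatcttacccta
Lifr, the receptor for leukaemia inhibitory factor, was listed at 0 in all 3 libraries from annotated transcripts and had 13.6, 13.7 and 12.6 FPKM with assembled ones. Its assembled transcripts ran 5746 nt past an annotated end and stopped at the same base in all 3 libraries.

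Longer 3′ ends were also seen for assembled transcripts of other genes. There were 2808 assembled transcripts, from 1477 genes, that had all the introns of an annotated transcript. Of these, 97.3% were longer at the 3′ end, by a median of 1906.5 nt, while the 5′ end moved by a median of 19 nt. Length was taken against the first annotated transcript with those introns by identifier, which need not have the nearest end. How far an end must differ for a transcript to be listed apart from the annotated one is not stated. The share therefore does not measure how common longer 3′ ends are. For 385 genes such a transcript was assembled in all 3 libraries, and for 219 of them (56.9%) the 3 ends lay within 50 nt. AATAAA or ATTAAA, searched on the transcript strand alone, stood in the last 40 bases of 39.0% of 2127 distinct assembled ends. The share was 39.9% of 4028 annotated ends of protein-coding transcripts of the same genes, and 3.01% of 1464 windows placed 1000 bases inside the longer part. No such hexamer stood in that window for the assembled ends read for Pgr, Rxra and Vcan. Bmpr2 had ATTAAA there in library 3 and no hexamer in libraries 1 and 2.

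Other steroid receptors were lower. The glucocorticoid receptor, Nr3c1, had 7.34, 6.30 and 5.91 FPKM, and 10.4, 9.48 and 8.10 with assembled transcripts. The mineralocorticoid receptor, Nr3c2, had 0.820, 0.874 and 0.590 FPKM and the second estrogen receptor, Esr2, had 0.328, 0.478 and 0.185, and these did not overlap. By gene sums with assembled transcripts, the order of the steroid receptors given here was therefore, from the top, Esr1, Pgr, Nr3c1, Nr3c2 and Esr2. All 5 membrane progesterone receptor genes reached 1 FPKM, and Pgrmc1, a heme-binding membrane protein, was the most abundant receptor gene listed, with 195, 195 and 205 FPKM (198 ± 5.56).

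Across all receptor lists, 118 of 217 genes reached 1 FPKM in all 3 libraries, and 140 did with assembled transcripts. Pgrmc1 was the 1 gene at or above 100 FPKM in all 3. Receptors thus held little of the transcriptome, 0.174, 0.192 and 0.220% of FPKM. Of 49 nuclear receptor genes, 18 (36.7%) reached the threshold and 25 (51.0%) did with assembled transcripts. The same shares of all protein-coding genes were 45.6 and 51.9%. The thyroid hormone receptor Thra had 38.0, 35.7 and 58.5 FPKM, the oxysterol receptor Nr1h2 had 50.8, 40.8 and 37.8, and the orphan receptor Nr2f2, which acts in uterine stroma downstream of hedgehog signals, had 31.7, 24.8 and 43.4. Other leading members were Nr2f6, Esrra, Nr1d2, Rarg and Rara. Listed at 0 even with assembled transcripts were Nr1i2, Nr1i3, Nr2e1 and Nr2e3.

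Of 58 receptor tyrosine kinase genes, 31 reached 1 FPKM in all 3 libraries. The planar polarity receptor Ptk7 had 36.7, 35.3 and 52.7 FPKM and Erbb2, the partner of other ERBB receptors, had 30.3, 35.1 and 46.8. Erbb3 had 21.9, 19.6 and 32.6 FPKM, while Egfr, which binds epidermal growth factor, had 4.31, 4.36 and 3.71, below both in each library. The collagen receptor Ddr1 had 16.1, 10.6 and 39.9 FPKM, Axl had 27.4, 16.6 and 41.04, and Pdgfra, the stromal receptor for platelet-derived growth factor, had 11.8, 12.5 and 35.9. Library 3 was the highest for each of these 3. The WNT coreceptor Ryk had 18.7, 22.6 and 19.4 FPKM, and the ephrin receptor Ephb4 had 18.0, 20.7 and 16.7. The insulin receptor, Insr, had 2.73, 6.96 and 1.89 FPKM, and 8.11, 8.45 and 9.93 with assembled transcripts.

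Of 27 cytokine and hormone receptor genes, 19 reached 1 FPKM in all 3 libraries. The interferon gamma receptor chains Ifngr2 (66.0, 68.9 and 77.6 FPKM) and Ifngr1 (42.7, 40.9 and 48.9 FPKM) and the interleukin 4 receptor Il4ra (57.3, 50.8 and 56.6 FPKM) were close in all 3 libraries. Il11ra1, the receptor for interleukin 11, which is needed for decidualisation in the mouse, had 33.4, 65.5 and 99.03 FPKM. Il6st, the signalling chain shared by LIF and interleukin 6 receptors, had 16.6, 16.5 and 10.6 FPKM, and 62.0, 62.7 and 56.0 with assembled transcripts. The growth hormone receptor, Ghr, had 10.5, 10.4 and 5.86 FPKM, the prolactin receptor, Prlr, was under 1 FPKM in each library, and the leptin receptor, Lepr, was listed at 0.

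Of 14 receptors and coreceptors of the TGF beta superfamily, 9 reached 1 FPKM in all 3 libraries and 13 did with assembled transcripts. Bmpr1a, a type I receptor for bone morphogenetic proteins, had 25.1, 23.98 and 17.2 FPKM, and its type II partner Bmpr2 was listed at 0 but had 8.34, 7.90 and 6.51 FPKM with assembled transcripts. For WNT, hedgehog and NOTCH signals, 17 of 22 genes reached the threshold. The frizzled receptors Fzd6 (25.5, 37.7 and 30.3 FPKM), Fzd10 (22.6, 40.5 and 42.6 FPKM) and Fzd2 (13.6, 14.6 and 15.7 FPKM) led together with the hedgehog transducer Smo (30.5, 27.9 and 32.6 FPKM). Fzd9 was listed at 0.

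Of 42 G protein coupled receptors in the annotation, 19 reached 1 FPKM in all 3 libraries. Ptger4, a prostaglandin E2 receptor, had 29.8, 29.3 and 27.5 FPKM, and the lysophosphatidic acid receptor Lpar1 had 23.6, 11.97 and 27.5. F2rl1, a receptor opened by proteases, had 11.04, 11.998 and 11.8 FPKM. Lpar3, which is needed for embryo spacing in the mouse, had 5.89, 7.94 and 3.13 FPKM. Rxfp1, the relaxin receptor, was listed at 0 but had 20.8, 19.5 and 12.5 FPKM with assembled transcripts. The oxytocin receptor, Oxtr, had 0.699, 0.544 and 0.445 FPKM, and 2.03, 2.23 and 1.81 with assembled ones.

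**Figure D3:**
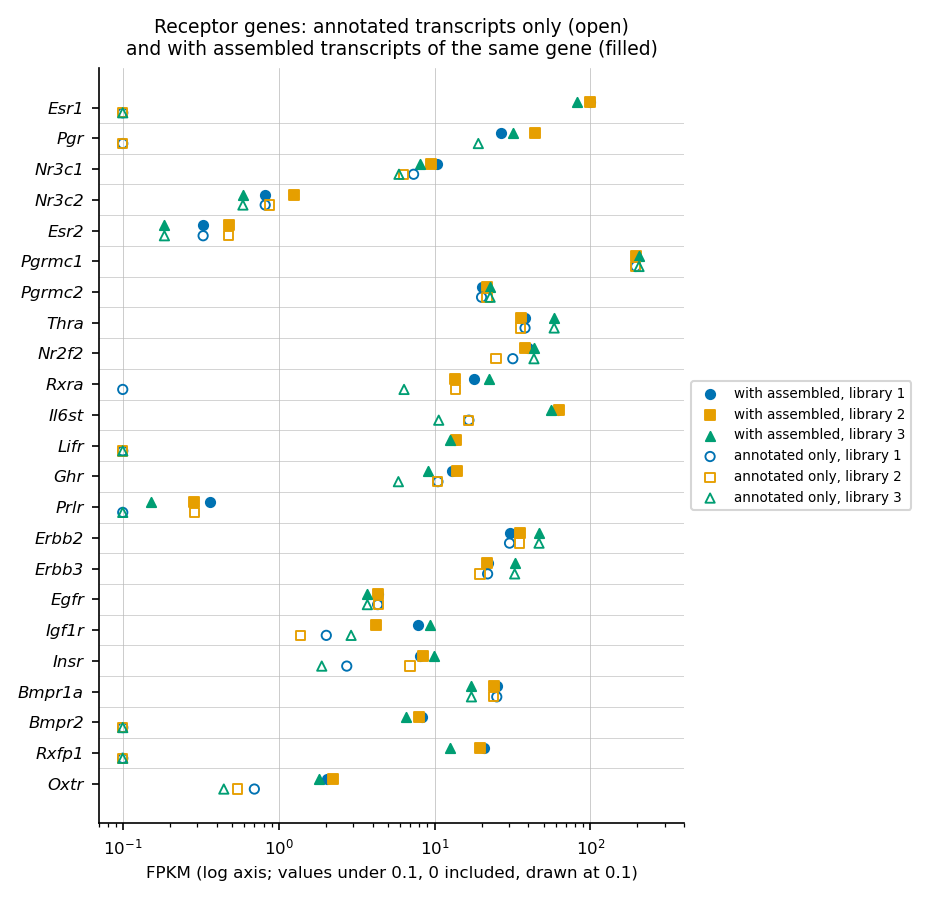
FPKM (log axis, values under 0.1 drawn at 0.1) of receptor genes in the 3 control libraries, from annotated transcripts (open) and with assembled transcripts of the same gene (filled). Open points of Esr1, Lifr, Bmpr2 and Rxfp1 sit at the floor in every library while their filled points lie between 6.51 FPKM (Bmpr2 in library 3) and 99.3 FPKM (Esr1 in library 1).

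Genes for secreted proteins held more of the transcriptome than receptors: 168 of 269 reached 1 FPKM in all 3 libraries, 34 were at or above 100 FPKM in all 3, and they summed to 2.55, 2.32 and 3.08% of FPKM. Defence, iron and complement genes were the most abundant list, with sums of 10512, 8081 and 11345 FPKM, of which Wfdc2, Lcn2, Ltf and C3 were the leading members. Other members were complement factor B, encoded by Cfb (301, 210 and 292 FPKM), and the immunoglobulin transporter Pigr (90.2, 78.0 and 101 FPKM). Library 2 was the lowest for both. Of 33 such genes, 23 reached 1 FPKM in all 3, and C2 and Bpifa1 were listed at 0.

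Matrix genes were detected broadly, 36 of 43 in all 3 libraries. After Dcn, the collagen-binding Sparc had 405, 468 and 737 FPKM, and Mgp, an inhibitor of calcification, had 465, 481 and 246. These differed in direction, since library 3 was the highest for Sparc and the lowest for Mgp. Col6a2 had 180, 185 and 244 FPKM and Col1a1 had 111, 138 and 152. Collagens as a family reached 1 FPKM in all 3 libraries for 17 of 43 genes, and held 0.114, 0.111 and 0.132% of FPKM but 0.434, 0.441 and 0.530% of aligned bases.

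Proteases and their inhibitors were led by the cysteine protease inhibitor Cst3 (453, 410 and 529 FPKM) and the lysosomal cathepsins Ctsb (401, 400 and 454 FPKM), Ctsl (360, 272 and 474 FPKM), Ctsd (341, 328 and 377 FPKM) and Ctsh (242, 263 and 255 FPKM). The antiangiogenic serpin Serpinf1 had 219, 195 and 299 FPKM and tissue kallikrein, Klk1, had 157, 163 and 266. Among 46 genes of this list, 33 reached 1 FPKM in all 3. The collagen chaperone Serpinh1 was listed at 0, 0 and 49.0 FPKM, and at 231, 152 and 175 with assembled transcripts.

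Growth factors were lower, with 34 of 65 genes at 1 FPKM in all 3 libraries and 46 with assembled transcripts. The heparin-binding factors Ptn (167, 161 and 100 FPKM) and Mdk (87.8, 96.7 and 127 FPKM) led. The epithelial WNT ligand Wnt7a had 39.6, 43.9 and 25.3 FPKM, the stromal Wnt5a had 38.4, 46.8 and 42.7, and Wnt4, which acts in decidualisation, had 12.3, 13.8 and 10.9. The range of Wnt4 lay below those of the other 2 WNT ligands. Igf1, the stromal growth factor induced by estradiol, had 13.4, 14.8 and 12.97 FPKM, and its binding proteins were higher: Igfbp7 had 360, 340 and 376 FPKM, Igfbp6 had 119, 127 and 125, and Igfbp4 had 125, 134 and 197. Igfbp1 was listed at 0. Among EGF family ligands, Hbegf had 10.3, 8.21 and 10.2 FPKM, and Areg and Ereg were listed at 0. Indian hedgehog, Ihh, an epithelial target of progesterone, had 1.27, 0.760 and 1.18 FPKM, and Shh and Dkk1 were listed at 0.

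Chemokines were led by 1 gene, the mucosal Cxcl17, with 409, 407 and 359 FPKM. Ccl8 had 140, 96.4 and 122 FPKM, Cxcl12, which attracts cells that bear Cxcr4, had 81.5, 88.5 and 74.3, and the eosinophil attractant Ccl11 had 46.6, 39.3 and 33.3. Cxcl10, an interferon-induced chemokine, had 27.7, 23.2 and 55.1 FPKM, highest in library 3, and Ccl5 had 21.3, 14.2 and 36.7 with the same order. Of 39 cytokine and chemokine genes in the annotation, 16 (41.03%) reached 1 FPKM in all 3 libraries, beside 45.6% of protein-coding genes. Among the remaining secreted proteins, the annexins Anxa1 (877, 839 and 1077 FPKM) and Anxa2 (621, 636 and 434 FPKM), galectin 1, encoded by Lgals1 (902, 784 and 886 FPKM), and apolipoprotein Apoe (865, 505 and 1370 FPKM) were high. Apoe differed by more than 2-fold between libraries 2 and 3. Prl, Oxt, Trh, Nppb, Tff1, Tff3, Ttr and Ovgp1 were listed at 0.

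Genes known to respond to the 2 hormones were read as levels, with no unprimed uterus in the series to set them against. Of 28 estradiol-responsive genes, 25 reached 1 FPKM in all 3 libraries, against 45.6% of protein-coding genes, with medians of 31.8, 27.9 and 24.2 FPKM. Besides Lcn2, Ltf, C3 and Clca3, the small proline-rich Sprr2f had 675, 549 and 1002 FPKM, the arginine deiminases Padi1 and Padi2 had 285, 272 and 311 FPKM and 119, 127 and 116 FPKM, and Txnip, an inhibitor of thioredoxin, had 289, 232 and 553. Of 25 progesterone-responsive genes 12 reached 1 FPKM in all 3, with medians of 1.83, 1.45 and 3.44 FPKM. They were led by the lipoxygenase Alox15 (113, 122 and 127 FPKM) and the kinase Sgk1, which promotes sodium uptake (97.2, 89.7 and 51.0 FPKM), followed by the transcription factors Sox17, Hoxa10, Gata2 (43.1, 51.8 and 45.0 FPKM), Nr2f2 and Hoxa11. Areg and Hmx3 were listed at 0. Scnn1a, a subunit of the epithelial sodium channel, had 0.863, 0.750 and 1.40 FPKM, and the inducible prostaglandin synthase Ptgs2 had 0.581, 0.542 and 0.538.

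Endoplasmic reticulum chaperones and stress regulators, which the study's title concerns, were abundant at baseline. Of 26 unfolded protein response genes, 25 reached 1 FPKM in all 3 libraries, with medians of 21.0, 22.1 and 22.5 FPKM. The chaperone Hspa5 had 406, 338 and 326 FPKM (357 ± 43.4). The disulfide isomerases Pdia6 (343, 302 and 340 FPKM) and Pdia3 (335, 330 and 289 FPKM) were at a like level, and the lectin chaperone Calr had 272, 334 and 235. The transcription factors were lower: Atf4 had 88.3, 91.5 and 91.4 FPKM, Xbp1 had 90.02, 81.2 and 96.6, and Ddit3, which acts in stress-induced cell death, had 19.3, 17.4 and 29.3. The ranges of Atf4 and Xbp1 overlapped, and Ddit3 lay below both in each library.

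Xbp1 messenger RNA is cut by the stress sensor IRE1, which removes 26 bases and shifts the reading frame so that an active transcription factor is made. The region is shown because the annotation holds transcripts with and without these bases (chr11:5424260-5424335, plus strand, NCBIM37); capitals mark the 26 bases, at positions 5424285 to 5424310.
Xbp1: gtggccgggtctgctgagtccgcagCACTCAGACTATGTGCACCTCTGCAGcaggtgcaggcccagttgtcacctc
Xbp1-201, which lacks them and has a frame of 371 codons, had 60.3, 50.7 and 44.3 FPKM, or 66.9, 62.4 and 45.9% of the gene. The deposited intervals around these values ran from 56.4 to 64.1, 47.5 to 53.9 and 41.2 to 47.4 FPKM. Transcripts that hold the bases, the coding Xbp1-001 (267 codons) and the processed transcript Xbp1-004, summed to 29.8, 30.5 and 34.0 FPKM, or 33.1, 37.6 and 35.2%. Xbp1-001 was listed at 0, 9.36 and 0 FPKM, so in libraries 1 and 3 the sum was that of Xbp1-004 alone. Such a 0 can be a failed estimate. In library 3 a further 18.2 FPKM were given to Xbp1-002, which ends before the region. By these values the form lacking the bases was the higher of the 2 in each library. In library 3 the FPKM of Xbp1-002 belong to neither form and exceed the gap between them, so the order there is not settled. Which reads crossed the gap is not in the values used here, so the split is an estimate over whole transcripts.

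Isoform use was read for 6333 genes with 2 or more annotated transcripts and a mean of at least 5 FPKM. The leading transcript held a median of 84.5, 85.1 and 81.9% of the gene in libraries 1, 2 and 3. It was the same transcript in all 3 libraries for 4663 genes (73.6%), and for 2093 (33.0%) the leading transcript of each library held at least 99.9% of the gene. For 160 genes (2.53%) the leading transcript stayed under 50% in all 3. Agreement was higher for abundant genes: 70.7% of 3179 genes at 5 to 20 FPKM, 74.6% of 2388 at 20 to 100 FPKM and 82.6% of 766 above that had 1 leader in the 3 libraries. Among 4446 protein-coding genes with 1 leader, it was typed protein coding for 90.4%, processed transcript for 4.59%, retained intron for 2.97% and target of nonsense-mediated decay for 2.09%.

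Of 65 genes listed for their known isoforms, 47 could be read, and 34 of these had the same leader in all 3 libraries. Some genes divided between 2 transcripts did so evenly across libraries. Cdh1-001 held 76.4, 76.2 and 75.9% of its gene, and Dcn-201 held 81.0, 79.0 and 80.5%. Cfb was also steady, with Cfb-201 at 62.8, 65.4 and 65.8% and Cfb-002 holding the rest. Genes with several annotated transcripts but only 1 above 0 in each library included the secretory Lcn2 (Lcn2-001) and Muc1 (Muc1-001). Myl6 (Myl6-201) has only 1 annotated transcript, so its share was fixed.

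For several genes the leader was short or not typed as coding. Hspa5-004, a processed transcript of 547 nt, had 235, 171 and 214 FPKM, above the coding Hspa5-002 (110, 130 and 66.3 FPKM) and Hspa5-001 (61.3, 37.4 and 45.8 FPKM). The gene sum of Hspa5 given above thus rested for 57.8, 50.6 and 65.6% on a form with no annotated protein. Clu-007, a decay target of 558 nt, held 56.5, 50.3 and 62.5% of clusterin, a secreted chaperone. Tpm3-011, a retained intron form of 655 nt, led the tropomyosin gene Tpm3 with 51.5, 48.2 and 70.3%, and Tpm2-004, of 401 nt, led Tpm2 with 57.8, 56.2 and 59.5%. Wfdc2-002, a processed transcript of 398 nt, held 100, 100 and 56.6% of its gene. FPKM divides by length, so short forms weigh more in these shares than they would by bases.

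For 13 of the 47 genes the leader differed between libraries. Pyruvate kinase is made in forms that share most exons, and Pkm2-201 had 89.2, 102 and 79.2 FPKM against 57.4, 62.1 and 79.4 for Pkm2-202, so the 2 were level in library 3. Col1a1-001 led in libraries 1 and 2 with 52.9 and 59.7%, and Col1a1-201 in library 3 with 57.9%. Sparc-003 was listed at 0 in libraries 1 and 2 and at 326 FPKM in library 3, where it led. Rac1-003 and Gnas-016, both processed transcripts, likewise led in library 3 and were listed at 0 in the other 2. Nr3c1, Fgfr1, Cald1, Actn1, Col6a3, Smtn, Flna and Ghr made up the rest. Fgfr2, a receptor for fibroblast growth factors, was listed at 16.6, 0 and 16.3 FPKM, on the coding Fgfr2-002 in library 1 and on the decay target Fgfr2-001 in library 3. Bcl2l1 and Flt1, each with a longer and a shorter coding form, had the same leader throughout. The long form of Bcl2l1, which protects from cell death (233 codons), held 61.4, 70.01 and 58.9% over Bcl2l1-001 and Bcl2l1-202, the second of these listed above 0 in library 2 alone, and Bcl2l1-002, of 188 codons, held 38.6, 29.99 and 41.1%. Full-length Flt1-001, of 1333 codons, held 73.3, 64.98 and 60.5% of this VEGF receptor, and the shorter Flt1-002, of 688 codons, held the rest.

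**Figure D4:**
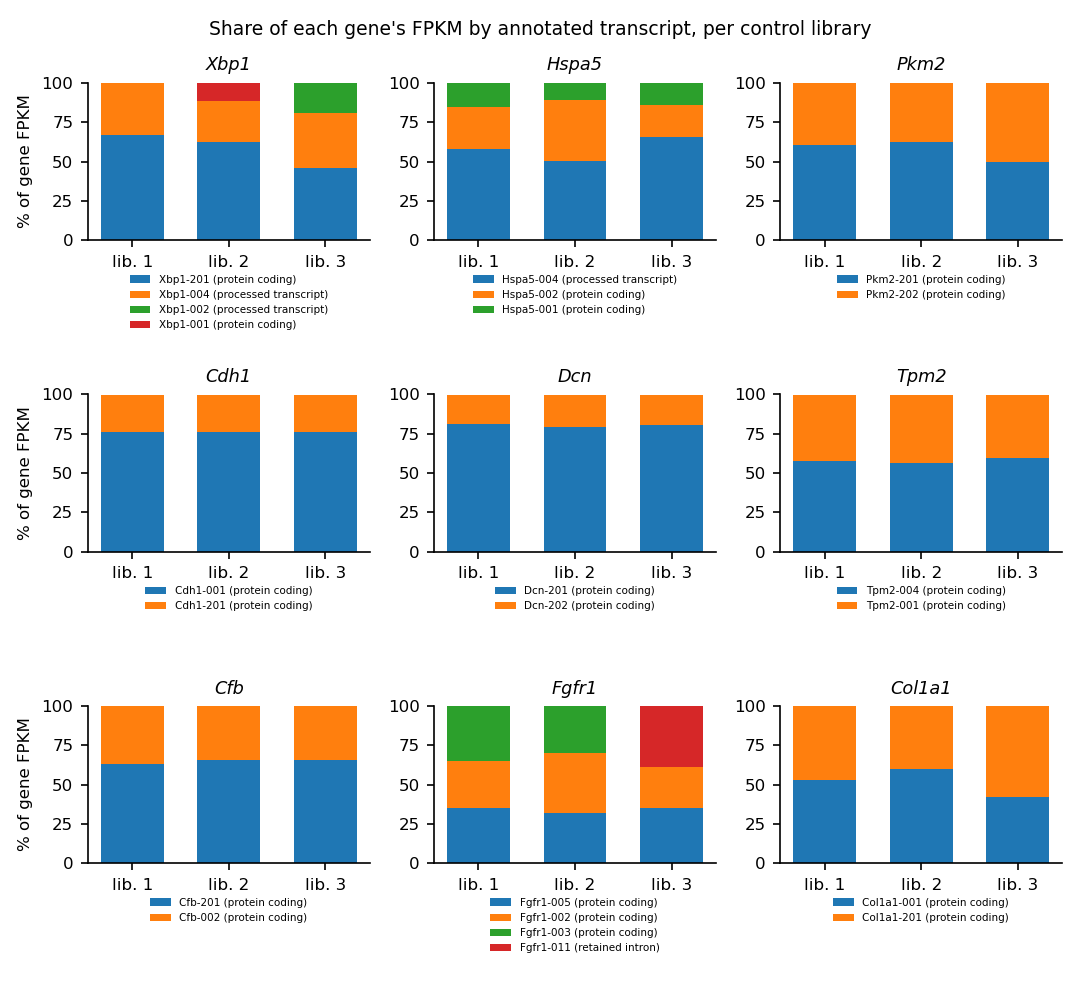
Share of each gene's FPKM (percent) held by its annotated transcripts in the 3 control libraries, for 9 genes; colours mark transcripts, named with their type under each panel. Shares of Cdh1, Dcn and Cfb hardly move between libraries, while Fgfr1, Pkm2 and Col1a1 change leader. The leading Fgfr1 transcript had 2.06, 1.68 and 2.36 FPKM, and its deposited interval overlapped that of the next transcript in each library.

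The 3 libraries agreed across genes with r of 0.960 (1 and 2), 0.954 (1 and 3) and 0.953 (2 and 3) on log2(FPKM + 1) over 35933 genes, which are not independent replicates. A set of 711 genes had 1 annotated transcript of at least 300 nt, no assembled one and a mean of at least 20 FPKM. Division among transcripts of the same gene plays no part in them. Near copies of other genes remain in the set, and their values can depend on reads shared with those genes. Ccl21c and Gm10591, for example, were both listed at 47.2, 47.2 and 34.8 FPKM. Over the 711 genes the correlation was 0.995 between libraries 1 and 2, and 0.956 and 0.952 for library 3 with each. The set includes 1810046J19Rik, Ly6c1 and Rpl7a-ps5, listed at 0 in library 3 alone, which can lower the correlations of that library. The correlation without them was not computed. The median coefficient of variation was 9.87%, and it was under 20% for 86.1% of the genes. Library 3 stood apart: 19 genes in it were at least 2-fold above or below both other libraries, against 0 in library 1 and 1 in library 2.

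Of the 9 genes higher in library 3, B2m, the light chain of class I molecules, had 782, 558 and 1804 FPKM in libraries 1, 2 and 3, the class Ib gene H2-T23 had 48.4, 46.2 and 117, Ifit3 had 25.1, 16.4 and 72.6, and the ubiquitin-like Isg15 had 32.4, 27.8 and 71.5. Ifit3 and Isg15 are interferon-induced, and other interferon-induced genes went both ways. Ifi27l2a had 242, 186 and 443 FPKM and Bst2 had 304, 250 and 529, both highest in library 3. Ifitm3 had 1410, 1299 and 1029 FPKM and Plscr1 had 31.2, 24.5 and 18.5, both lowest there. An interferon response was not tested. Prap1 is given above. Dio2, which activates thyroid hormone, had 19.7, 6.04 and 54.8 FPKM, and the remaining ones were Ctla2a, Itm2a and Spon2. Of the 10 lower in library 3, S100g, the calcium-binding protein calbindin-D9k, had 616, 623 and 199 FPKM, Tmem158 had 102, 120 and 14.8, and the adipocyte fatty acid carrier Fabp4 had 44.9, 31.6 and 2.41. Fut2, Ndufa11 and Shisa2 were also lower, and 1810046J19Rik, Ly6c1 and Rpl7a-ps5 were listed at 0 in library 3.

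**Figure D5:**
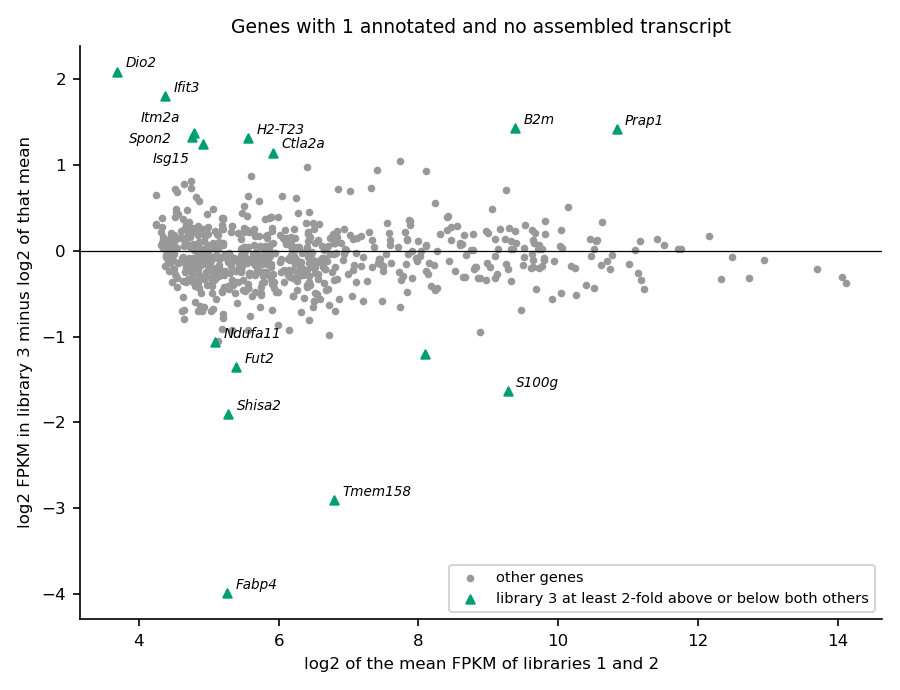
For genes whose value rests on 1 annotated transcript, log2 FPKM of library 3 minus log2 of the mean of libraries 1 and 2 (y axis) against log2 of that mean (x axis); triangles mark genes at least 2-fold from both other libraries, and 3 genes listed at 0 in library 3 are not drawn. Most genes lie near 0, B2m and Prap1 lie above and S100g and Tmem158 below.

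Markers of other cell types moved with library 3, and their part in these differences was not tested. The 8 adipocyte markers summed to 113, 52.7 and 4.15 FPKM, with 1 of 8 (Fabp4) at 1 FPKM in all 3 libraries and Plin1 listed at 0 in libraries 2 and 3. The 10 neutrophil markers summed to 20.6, 38.6 and 4.42 FPKM, and the urothelial Upk1a had 15.4, 26.8 and 3.86. Macrophage and erythroid sums were highest in library 3, as given above.

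The 10 genes of largest range among those at a mean of at least 20 FPKM with no library at 0 were mostly genes of several transcripts. Alox5ap headed them, followed by 5330417C22Rik (2.99, 3.84 and 82.7 FPKM), Yipf6 (5.89, 4.75 and 128 FPKM), the small nuclear RNA U4 (454, 66.1 and 24.1 FPKM) and Fabp4. The others were Klhl22, Syt8, Vps29, Crabp2, which carries retinoic acid (77.0, 119 and 9.96 FPKM), and Fblim1. Fabp4 and U4 each have 1 annotated transcript and the other 8 have 2 or more.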

How the data were processed

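RNA of whole mouse uterus was read in 3 control libraries. Bowtie 0.12.2, Cufflinks and the build mm9 are named, per the submitters' processing notes; no Cufflinks version or option is stated there. The deposited FPKM are the authors' transcript values with interval ends, and the deposited coverage signal is mean depth over a transcript. Columns were read by position, because the table of library 1 lacks a header. Each library listed 92839 annotated transcripts, of which 1356 or 1354 were not in the GENCODE annotation of NCBIM37 (the same build) and were left out; these held 8.73, 5.63 and 6.96% of annotated FPKM in libraries 1, 2 and 3.

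Gene values were sums of FPKM over annotated transcripts, computed with Python 3.11.15, pandas 2.3.3 and numpy 2.4.6. As a second reading, assembled multi-exon transcripts were added to the gene with which alone they share a splice junction. A gene was called detected at 1 FPKM. The gene sums were tested on simulated data. The members, gene lists and reading were chosen with earlier results of these data known. Named genes were the 30 most abundant, up to 8 leading members of each list, the steroid receptors, 10 genes of largest range and the isoform list; genes set apart in 1 library, near copies and transcript ends were chosen after their values were seen. Values of some genes that this rule made eligible are not reported here. No group was compared and no test was run. Means ± SD are over 3 libraries.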

Additional observations from a re-analysis of the deposited data

How the results depend on the processing

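Settings were changed one at a time, and those on transcript length, aligned bases and single-transcript genes, with every alternative for the ribosomal protein share, were chosen after seeing the data. The share of the 10 most abundant genes, a mean of 17.7%, was 19.7% from leading transcripts, 12.8% from transcripts of 300 nt or more, 15.9% without mitochondrial genes and 9.36% by aligned bases, and 16.9 to 18.2% without 1 library. For 100 genes, 44.0% became 46.3, 37.8, 41.5 and 25.0% in the same settings, and 43.2 to 44.6% without 1 library. The ribosomal protein share, 18.0%, was 17.6% with assembled transcripts, 22.1% from protein-coding transcripts, 20.2% from those of 300 nt or more, 10.1% by aligned bases and 17.9 to 18.2% without 1 library. Of the 30 most abundant genes, 19 stayed in the order of protein-coding transcripts, 18 by aligned bases and 29 to 30 without 1 library. At a threshold of 5 FPKM, 70 receptor genes were detected, not 118. Without 1 library, receptor counts were 121 to 126, markers 111 to 124, secreted proteins 176 to 183 and all detected genes 11569 to 11767. With fewer libraries in which a gene must pass, these counts could not fall. The mean correlation of libraries, 0.956, was 0.940 with a pseudocount of 0.1, 0.880 over genes averaging 1 FPKM or more and 0.967 over single-transcript genes. The share of genes with 1 leading transcript, 73.6%, was 70.3% from a mean of 1 FPKM, 76.6% from 20 FPKM, 77.5% over protein-coding transcripts and 79.5 to 84.2% without 1 library. Leaving out a library also loosens the rule for 1 leading transcript, which favours a higher share. The causes of the other shifts were not tested. Of 45 named genes, 13 moved by more than 1 SD from leading transcripts alone and 12 from protein-coding ones. No paired analysis was possible because 1 group was described and no result came from a test. Depth in reads is unknown, so the counting error of low values cannot be given.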
